A study of Mus musculus with 4 samples.

Results

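The genes described here were the immunoglobulin heavy chain constant genes, which encode the part of an antibody that sets its class. All 8 genes were taken by symbol (Ighm, Ighd, Ighg3, Ighg1, Ighg2b, Ighg2c, Ighe and Igha), and they were 8 of the 31053 genes in the count matrix. Single cell RNA sequencing had been done on B cells from the spleens of wild-type C57BL/6 mice, purified by negative selection and cultured. Bregs-CpG were B cells kept with CpG ODN 1668 for 3 days, and Bregs-TLR were B cells kept in the same way that also received LPS, PMA and ionomycin for the last 5 hours, with 2 samples of each. The barcodes fell into 4 libraries, numbered 5, 6, 7 and 8 by the barcode endings. The barcodes were matched in order to the last 19920 columns of the matrix. No label tied a library number to a sample, so no value below can be assigned to Bregs-CpG or to Bregs-TLR, no test between the conditions was made, and each library is given by itself.

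A B cell that has not switched class transcribes Ighm and Ighd together from 1 promoter, and alternative processing of that primary transcript gives the μ chain of IgM and the δ chain of IgD. Class switch recombination moves the variable region next to a downstream constant gene, so that the cell makes an IgG, IgE or IgA chain. Before they switch, stimulated B cells also make germline transcripts of a downstream constant gene from its own promoter. These carry the same constant exons, so 3′ counting cannot tell them apart from the mRNA of a switched heavy chain.

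The genes lie in 1 row on chromosome 12 of GRCm38, on the minus strand, within 167901 bases. Ighm, the first in the direction of transcription, spans chr12:113418558-113422730, and Ighd spans chr12:113406604-113416324. The 4 IgG genes follow, with Ighg3 at chr12:113356224-113361232, Ighg1 at chr12:113325240-113330523, Ighg2b at chr12:113302965-113307933 and Ighg2c at chr12:113285325-113288932. Ighe at chr12:113269260-113273248 and Igha at chr12:113254830-113260236 close the row.

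The IgG genes are similar in sequence, and the values below rest on telling them apart. The last 60 coding bases of the secreted form are shown for that reason, 5′ to 3′, in the final exon of each secreted transcript, with capitals where a base differs from Ighg2b at the same place.
Ighg2b: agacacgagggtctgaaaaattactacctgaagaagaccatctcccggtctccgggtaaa
Ighg2c: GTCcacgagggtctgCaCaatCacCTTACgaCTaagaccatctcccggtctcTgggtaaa
Ighg1: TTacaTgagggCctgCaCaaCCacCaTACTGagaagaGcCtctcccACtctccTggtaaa
Ighg3: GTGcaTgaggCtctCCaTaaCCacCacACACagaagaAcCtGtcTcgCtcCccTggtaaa

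These stretches are on the minus strand of GRCm38, at chr12:113306392-113306451 for Ighg2b, chr12:113287392-113287451 for Ighg2c, chr12:113328979-113329038 for Ighg1 and chr12:113359668-113359727 for Ighg3. Ighg2c differed from Ighg2b at 14 of the 60 bases, Ighg1 at 19 and Ighg3 at 22. Over the whole annotated transcripts, 5.49% of the 50-base stretches of Ighg2c and 4.15% of those of Ighg2b occurred in another of the 8 genes, against 1.58% for Ighg3, 0.393% for Ighg1 and none for Ighm, Ighd, Ighe and Igha. Low counts of Ighg2c in cells with Ighg2b are therefore uncertain. The annotated transcripts of Ighg2c held 1276 different 50-base stretches, against 2463 for Ighg3, 2542 for Ighg1 and 2628 for Ighg2b. Whether a shorter annotation left Ighg2c UMIs uncounted was not tested.

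Of 19920 barcodes, 18534 had at least 1000 detected genes and under 10% mitochondrial unique molecular identifiers (UMIs, each standing for 1 captured mRNA molecule), and these are the cells below. Libraries 5, 6, 7 and 8 held 4196, 4714, 5621 and 4003 of them, with 44842982, 51636750, 63638158 and 45672518 UMIs. Median depth was 8752, 8785, 10355 and 10077 UMIs per cell, and the median mitochondrial share was 7.22%, 7.18%, 4.61% and 4.65%. Just 29 barcode sequences occurred in more than 1 library. Cd79a, a component of the B cell receptor, was found in 98.1% of cells, whereas no UMI was counted for the NK cell markers Nkg7, Klrb1c and Ncr1, the T cell markers Cd3e, Cd8a and Cd4, or the myeloid markers Lyz2, S100a8, S100a9 and C1qa. Of the same T cell and myeloid lists, Trac had 83 UMIs, Cd3d 31, Cd3g 2, Itgam 270 and Csf1r 3. Whether genes or cells had been filtered before deposit was not tested. Levels are given in CPM, the UMIs of a gene per 1000000 UMIs, both summed over the cells of a library, with exact Poisson intervals, and shares of cells with Clopper-Pearson intervals, both at 95%. For a count of 0, the share given as a limit is that of 3 cells. The intervals cover counting error only, not the spread between cells, mice or cultures. Because 1 molecule gives 1 UMI at its 3′ end, levels of different genes were compared without a correction for length. That comparison takes the 3′ end of each gene as fully annotated.

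The cells were dominated by Ighm, followed by Ighg2b and then Ighd, and this order held in all 4 libraries. Ighm, the μ chain of IgM, made up 86.2%, 87.9%, 85.3% and 82.3% of the heavy chain constant UMIs of libraries 5 to 8. Ighg2b, the γ2b chain, made up 9.90%, 8.68%, 12.8% and 15.2%. Ighd, the δ chain, made up 3.25%, 3.23%, 1.80% and 2.29%. The other 5 genes were rare, and 4 of them stayed under 0.1% of these UMIs in every library. The exception was Ighg2c, at 0.497% in library 5 and between 0.0178% and 0.0607% in the others. The 8 genes together took 0.426%, 0.467%, 0.225% and 0.184% of all UMIs, with a median of 32, 34, 12 and 12 UMIs per cell. Taken within each cell, the median share of Ighm was 85.7%, 86.5%, 76.9% and 78.6%. That of Ighg2b was 10%, 9.26%, 20% and 18.2%, so the libraries differed more by the middle cell than by the sums.

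**Figure D1:**
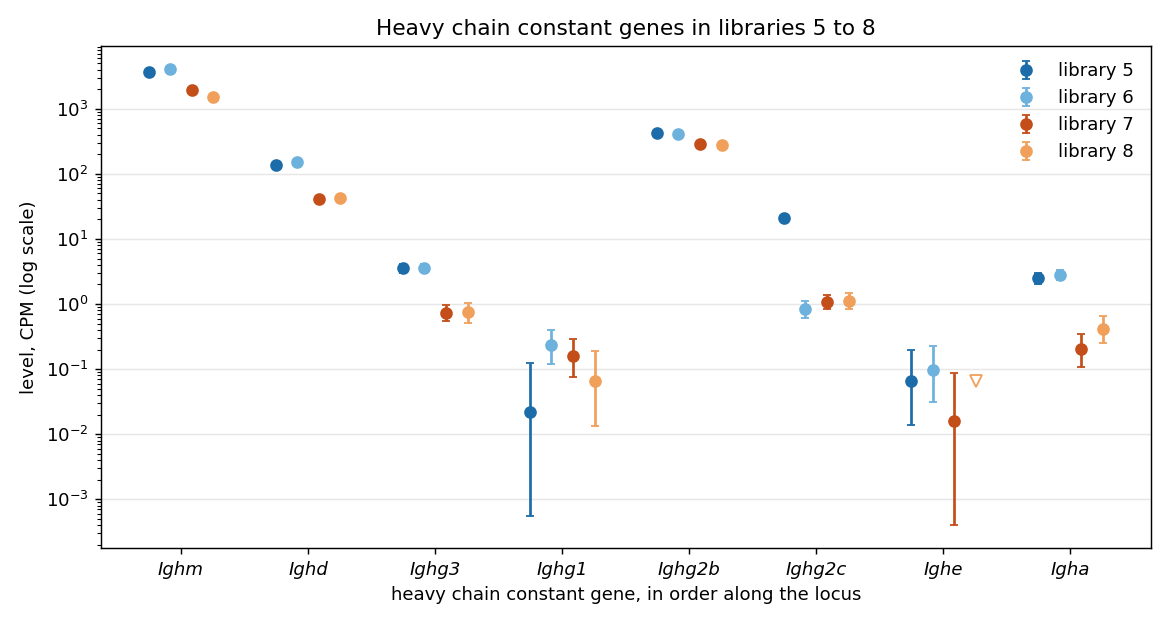
Level of each heavy chain constant gene in CPM (log scale) in libraries 5 to 8, with genes in order along the locus, bars for the exact 95% Poisson interval, and an open triangle at 3 UMIs where no UMI was counted (Ighe in library 8). Ighm was highest throughout, Ighg2b was second, and Ighg2c of library 5 stood at 21.2 CPM, of which 924 of 949 UMIs came from 1 cell.

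Ighm was higher in libraries 5 and 6 than in libraries 7 and 8. Its level was 3672 CPM (interval 3654 to 3690) in library 5, 4105 (4088 to 4123) in library 6, 1915 (1904 to 1926) in library 7 and 1516 (1505 to 1527) in library 8. The highest library stood 2.71-fold above the lowest, and no 2 intervals overlapped. The variance of Ighm UMIs over cells was 132, 226, 499 and 257 times their mean, however, and these intervals leave that spread out. A ratio of at least 2 between the highest and the lowest library was found in 35.6% of the 11174 genes with at least 100 UMIs, and in 5 of the 6 members with as many UMIs, or 4 of 6 without cells rich in Jchain, so a ratio of this size was not rare. Nor was the order of the libraries, since both libraries 5 and 6 lay above both libraries 7 and 8 for 40.1% of those genes and below them for 49.96%.

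The same order was seen cell by cell. The median cell had 27, 28, 9 and 8 Ighm UMIs, or 30.3, 31.7, 8.38 and 8.13 per 10000 UMIs of the cell. Ighm was detected in 99.95%, 99.96%, 98.4% and 97.8% of cells, so the libraries differed in how much Ighm a cell held far more than in how many cells held any. After each cell had been thinned to 5000 UMIs, the medians were 15, 16, 4 and 4. The middle cells of libraries 7 and 8 ran from 5 to 15 Ighm UMIs between the lower and the upper quartile, whereas those of library 5 ran from 19 to 40 and those of library 6 from 20 to 43.

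A few cells carried much of the Ighm of libraries 7 and 8. The 1% of cells with the most Ighm held 14.7% and 18.1% of its UMIs in libraries 5 and 6, but 43.5% and 32.0% in libraries 7 and 8. Single cells reached 1699, 2967, 2149 and 1814 Ighm UMIs. These included cells rich in Jchain, which encodes the chain that joins IgM into pentamers and IgA into dimers and marks antibody secreting cells. With at least 10 Jchain UMIs per 10000 UMIs, 20, 34, 50 and 26 cells of libraries 5 to 8 were Jchain-high, 130 in all. Few cells lay near that limit, with 15 between 5 and 10 and 22 between 10 and 20. The Jchain-high cells had 62038, 70091, 69468 and 48371 CPM of Ighm and carried 9.48%, 14.2%, 40.2% and 25.3% of all Ighm UMIs. Without them Ighm stood at 3342, 3553, 1158 and 1142 CPM, and the ratio of highest to lowest library was 3.11 in place of 2.71. Libraries 7 and 8 then had overlapping intervals of 1149 to 1166 and 1132 to 1152. Also without the Jchain-high cells, Ighm made up 85.4%, 86.2%, 77.9% and 78.6% of the heavy chain constant UMIs. Ighg2b made up 10.8%, 9.90%, 19.2% and 18.4%.

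**Figure D2:**
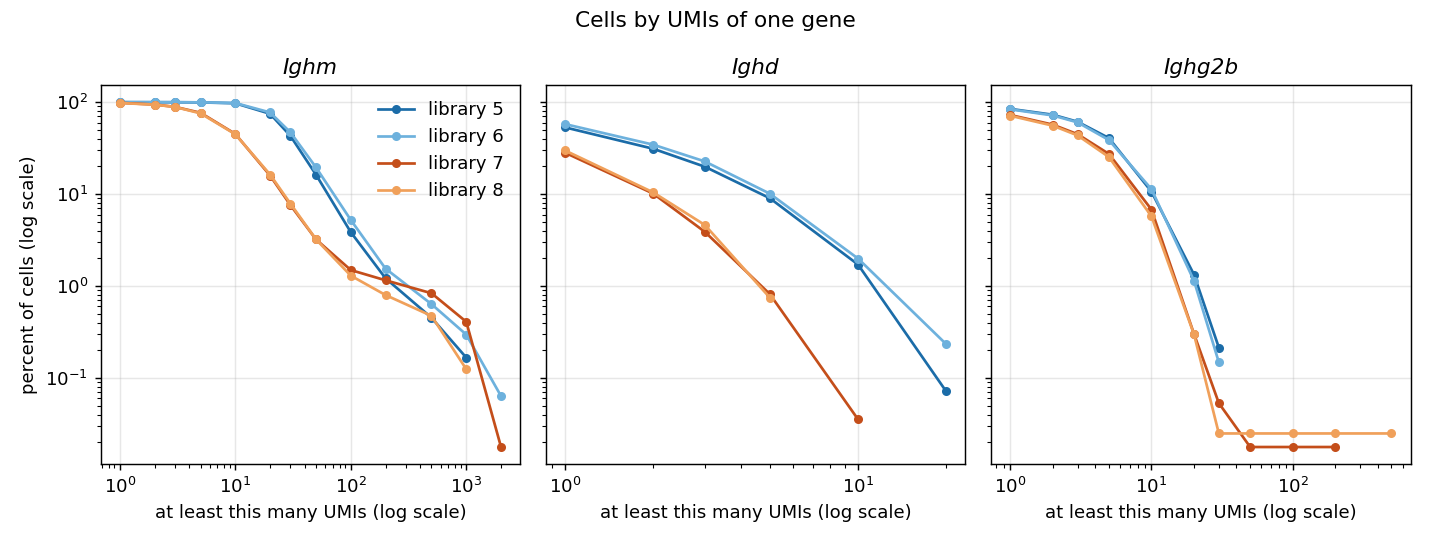
Percent of cells (log scale) with at least a given number of UMIs (log scale) of Ighm, Ighd and Ighg2b in libraries 5 to 8. For Ighm the curves of libraries 7 and 8 fall early and then flatten where the few cells with very high counts remain, and for Ighg2b the flat tails of libraries 7 and 8 are single cells with 260 and 672 UMIs.

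The share of mitochondrial UMIs differed between the libraries as well, so levels were compared between cells of like share. Among cells with 5% to 7.5% mitochondrial UMIs, which were 2313, 2588, 1894 and 1331 cells, Ighm stood at 3427, 3871, 1418 and 1243 CPM. Ighd in the same cells stood at 129, 143, 43.7 and 45.9 CPM, and Ighg2b at 417, 405, 299 and 274. Each gene thus kept its own order of the libraries within this range of mitochondrial share. Just 143 and 207 cells of libraries 5 and 6 had under 5%, and in these Ighm reached 10963 and 11056 CPM, with 10 and 14 Jchain-high cells among them. Their median Ighm was 30.1 and 29.9 per 10000 UMIs of the cell, against 29.9 and 31.8 in the cells with 5% to 7.5%.

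Ighd was likewise higher in libraries 5 and 6, with a wider span. It stood at 139 (135 to 142), 151 (148 to 154), 40.4 (38.9 to 42.0) and 42.1 (40.3 to 44.1) CPM in libraries 5 to 8. Libraries 7 and 8 did not differ beyond counting error, and the highest library was 3.73-fold above the lowest. Means of 1.48, 1.65, 0.458 and 0.481 UMIs per cell made Ighd a sparse measurement, and it was detected in 53.2%, 57.8%, 28.2% and 29.9% of cells. Thinned to 5000 UMIs per cell, these shares were 38.3%, 42.1%, 16.5% and 16.4%. No cell stood far out, since the highest had 24, 25, 10 and 9 Ighd UMIs. In the Jchain-high cells, where Ighm was at its highest, Ighd was lower than in the other cells of each library, at 23.8, 37.4, 19.8 and 24.9 CPM against 139, 152, 40.7 and 42.3. Those 4 low values rest on 6, 16, 14 and 9 UMIs, and in library 8 the interval, 11.4 to 47.2, took in the value of the other cells. The total used for CPM includes Ighm UMIs, of which the Jchain-high cells held more. The part of that in the low values was not tested.

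Genes that process the heavy chain transcript varied less than Ighd. Zfp318, which is required for the splicing that yields IgD, stood at 60.8, 62.8, 47.7 and 45.4 CPM, a ratio of 1.38 between the highest and the lowest library. Ell2, an elongation factor that favors the secreted form of the heavy chain mRNA in plasma cells, had a ratio of 1.43, and Cstf2, a subunit of the cleavage stimulation factor, had a ratio of 1.88 with its highest level in library 7. None of the 3 genes of this list with at least 100 UMIs reached a ratio of 2, beside 35.6% of all genes, and Hnrnpll had 90 UMIs in all.

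The partners of the heavy chain in the B cell receptor all varied by more than 2-fold. Igkc, the κ light chain, stood at 9374, 9938, 4089 and 2585 CPM. Cd79b, a signaling component of the receptor, stood at 2158, 2226, 294 and 307 CPM, and Cd79a at 3072, 3239, 1057 and 1033. All 6 genes of this list (these and Iglc1, Iglc2 and Iglc3) had a ratio of at least 2, beside 35.6% of all genes. Their median ratio was 7.41 against 1.67 over all 11174 genes. Each of the 6 was higher in both libraries 5 and 6 than in either of the others, as Ighm was. That order was found for 40.1% of the 11174 genes. Ighm had a smaller ratio than any of the 6.

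Ighg2b gave most of the IgG UMIs counted in these cells. It stood at 422 (416 to 428), 405 (400 to 411), 288 (284 to 292) and 280 (276 to 285) CPM, a ratio of 1.504, which with all cells counted was the lowest of the 6 members with at least 100 UMIs and the only one under 2. As for Ighm, libraries 5 and 6 lay above libraries 7 and 8, but the span was smaller. The Ighm UMIs counted for each Ighg2b UMI were 8.70 and 10.1 in libraries 5 and 6 and 6.66 and 5.41 in libraries 7 and 8. Without Jchain-high cells and cells with at least 50 IgG UMIs, they were 7.89, 8.71, 4.05 and 4.28. In cells with both genes, the median ratio of Ighm to Ighg2b was 7, 7.52, 2.67 and 2.80. Ighg2b thus held a larger share of the heavy chain transcripts of libraries 7 and 8 while its own level there was lower.

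Most cells contained IgG transcripts. At least 1 UMI of an IgG gene was found in 85.3% (84.2% to 86.4%), 84.1% (83.1% to 85.2%), 72.9% (71.7% to 74.0%) and 71.5% (70.1% to 72.9%) of cells, 78.3% over all. Thinned to 5000 UMIs per cell, the shares were 75.8%, 74.6%, 59.7% and 58.4%. Among cells with under 5% mitochondrial UMIs, the libraries lay closer together, at 74.8%, 74.9%, 70.4% and 70.3%. Ighg2b gave 94.5%, 98.9%, 99.3% and 99.3% of the IgG UMIs in the cells with at least 1 of them. Higher limits left fewer cells. With at least 3 IgG UMIs the shares were 61.7%, 60.7%, 45.1% and 43.7%, and with at least 10 they were 10.7%, 11.5%, 6.88% and 5.80%. At least 20 were found in 57, 56, 17 and 13 cells. At least 50 were found in just 1 cell each of libraries 5, 7 and 8 and in 0 of 4714 cells of library 6, which allows a share of up to 0.0636%.

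**Figure D3:**
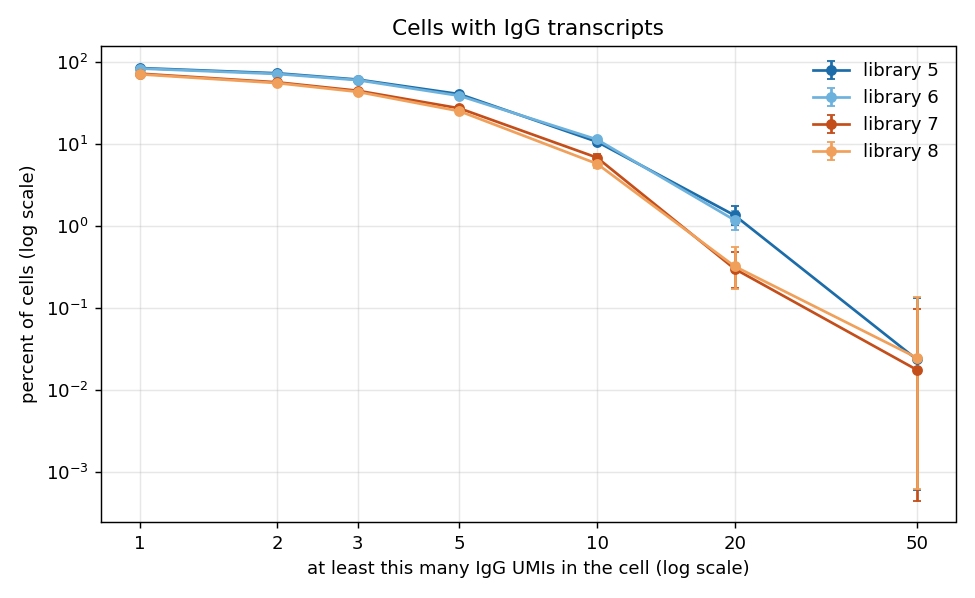
Percent of cells (log scale) with at least 1, 2, 3, 5, 10, 20 or 50 UMIs of the 4 IgG genes (log scale) in libraries 5 to 8, with 95% Clopper-Pearson bars. The curves of libraries 5 and 6 lie above those of 7 and 8 from 1 to 20 UMIs, and at 50 UMIs each point is 1 cell, with none in library 6.

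Nearly all cells had Ighm, and so did nearly all cells with Ighg2b. Of the 3546, 3941, 4078 and 2852 cells with an Ighg2b UMI, 99.97%, 99.97%, 99.04% and 98.7% also had an Ighm UMI. These shares were close to the 99.95%, 99.96%, 98.4% and 97.8% of all cells. The cells with Ighg2b had medians of 27, 29, 9 and 9 Ighm and 4, 4, 3 and 3 Ighg2b UMIs. Cells with more Ighg2b than Ighm were 23 in library 5 and 18 in library 6 (0.548% and 0.382%), but 545 and 398 in libraries 7 and 8 (9.70% and 9.94%). The level of Ighg2b did not rise or fall steadily with that of Ighm within a library. With the cells split by rank of Ighm into 4 equal groups, from the lowest to the highest, Ighg2b stood at 421, 435, 420 and 411 CPM in library 5 and at 411, 403, 407 and 401 in library 6. In library 7 it stood at 216, 313, 327 and 289, lowest in the group with the least Ighm, and in library 8 at 273, 277, 304 and 263. The lowest groups of libraries 7 and 8 included the cells with 260 and 672 Ighg2b UMIs, which had 1 and 2 Ighm UMIs. Those cells raised the values of 216 and 273, and the levels without them were not computed.

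Free RNA can place UMIs in cells that do not express a gene, and cells of another class served as the comparison. In the cell of library 5 with 924 Ighg2c UMIs, of 9467 in all, there were 0 Ighm and 0 Ighg2b UMIs. A cell of library 6 with 15 Igha UMIs, of 12029 in all, likewise had 0 of both. Other cells of library 6 led by another gene did hold them, since the cell with 22 Ighg3 UMIs had 5 Ighm and 14 Ighg2b UMIs and the cell with 11 Ighg1 UMIs had 0 Ighm and 8 Ighg2b UMIs. The cells of libraries 7 and 8 with 260 and 672 Ighg2b UMIs had 1 and 2 Ighm UMIs, of 6357 and 4589 in all. A second set, chosen after the data were seen, was the 92 cells with no UMI of Ms4a1, Cd79a or Cd79b, 56 in library 7 and 36 in library 8. Ms4a1, Cd79a and Cd79b were all lower in libraries 7 and 8 than in libraries 5 and 6. Ms4a1 stood at 1499, 1510, 32.0 and 37.0 CPM in libraries 5 to 8. An Ighm UMI was found in 85.7% and 75% of the second set, against 98.5% and 98.03% of the other cells of libraries 7 and 8. An Ighg2b UMI was found in 48.2% and 55.6%, against 72.8% and 71.4%, at median depths of 7664 and 8263 against 10399 and 10100 UMIs. Their levels were 480 and 404 CPM of Ighm against 1925 and 1523, and 132 and 230 CPM of Ighg2b against 289 and 281. The type of these cells was not determined, so free RNA was not measured in a cell type that lacks immunoglobulin, and its part in the low counts of Ighg2b was not tested.

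**Figure D4:**
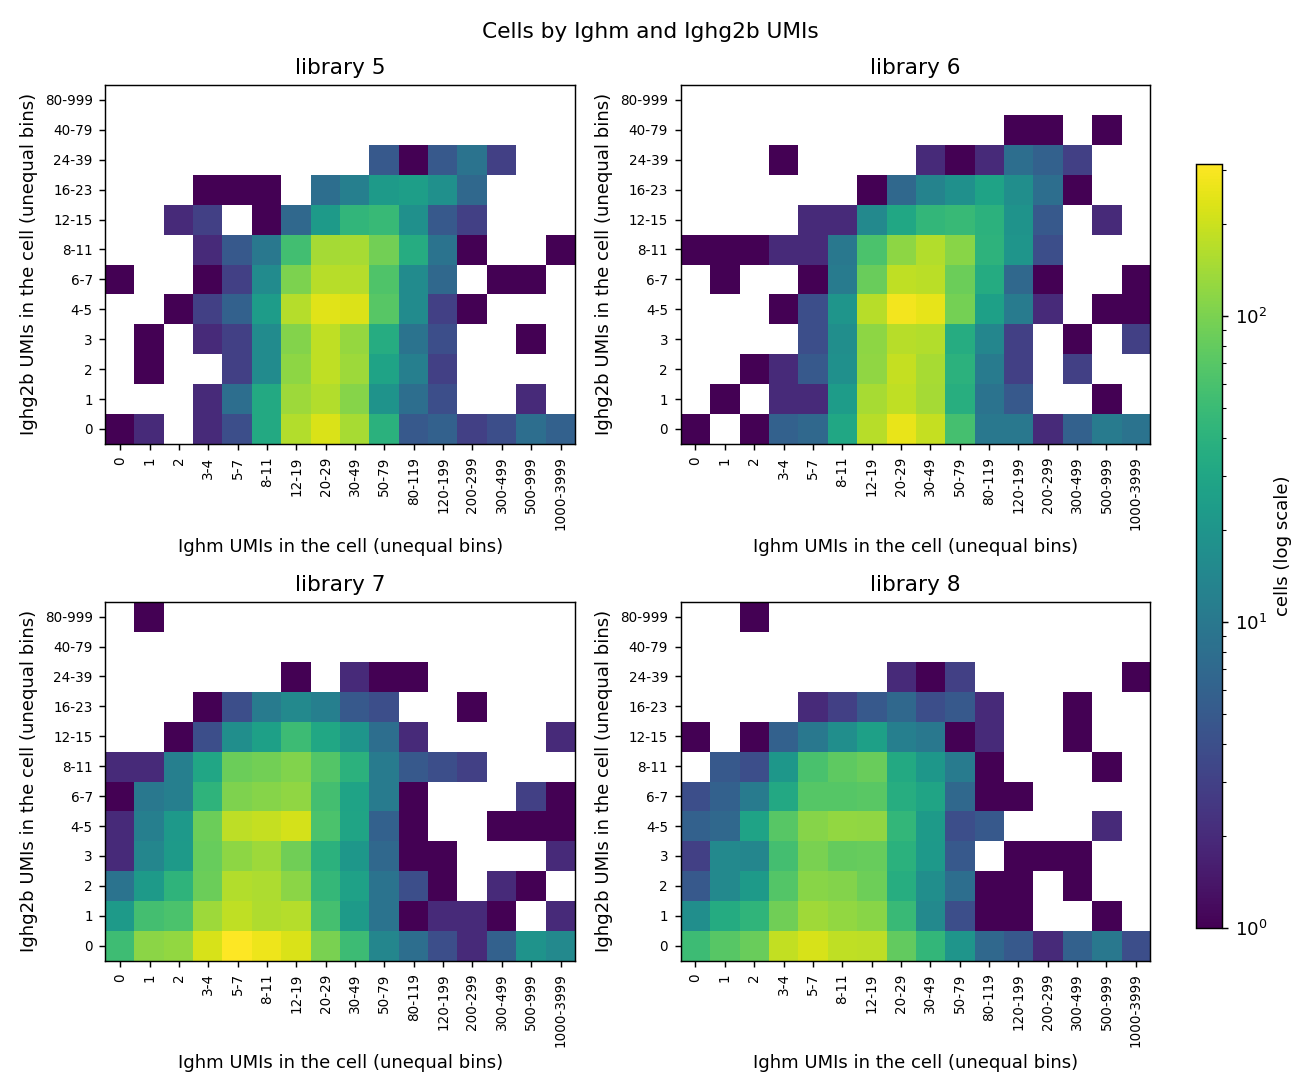
Number of cells (color, log scale) by Ighm UMIs (horizontal, unequal bins) and Ighg2b UMIs (vertical, unequal bins) of the cell in each library, with empty bins white. Most cells of libraries 5 and 6 lie at 12 to 49 Ighm UMIs over 0 to 11 Ighg2b UMIs, those of libraries 7 and 8 lie at lower Ighm, and the cells with 260 and 672 Ighg2b UMIs stand alone at 1 and 2 Ighm UMIs.

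Cells were then grouped by their leading gene among those with at least 10 heavy chain constant UMIs, which were 4162, 4676, 3530 and 2490 cells. Libraries 7 and 8 lost many cells to this limit, 2091 and 1513 against 34 and 38 in libraries 5 and 6. Ighm and Ighd together made up at least 90% in 49.4%, 52.5%, 33.5% and 35.8% of the cells that remained. Ighm alone made up at least 50%, with Ighm and Ighd under 90%, in 49.8%, 46.6%, 54.1% and 52.0%. The IgG genes made up at least 50% in 19, 15, 373 and 241 cells, or 0.457%, 0.321%, 10.6% and 9.68%. Of these 648 IgG-dominant cells, 630 had under 20 IgG UMIs, and their median cell still held 4, 5, 6 and 6 Ighm UMIs beside 10, 10, 9 and 9 Ighg2b UMIs. With a limit of 80% in place of 50%, the share over all libraries was 0.229% in place of 4.36%. The 3 cells with at least 50 IgG UMIs had 0, 1 and 2 Ighm UMIs, whereas most IgG-dominant cells held a moderate Ighg2b count beside a low Ighm count.

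**Figure D5:**
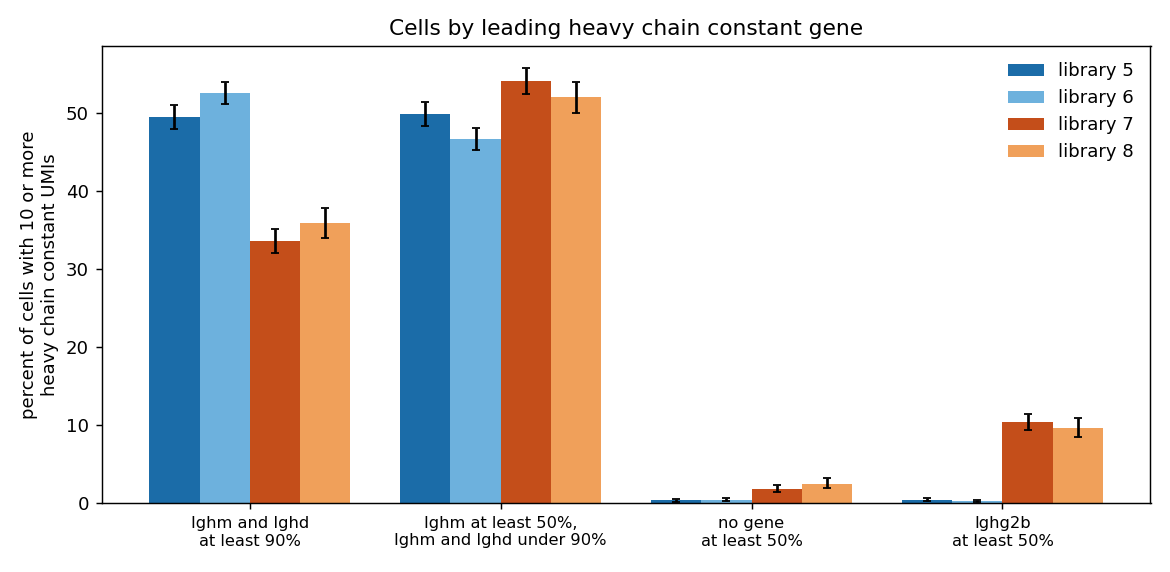
Percent of cells with at least 10 heavy chain constant UMIs in 4 groups by leading gene, for libraries 5 to 8, with 95% Clopper-Pearson bars. Ighg2b led in 0.432% and 0.278% of the cells of libraries 5 and 6 and in 10.4% and 9.68% of those of libraries 7 and 8.

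Among the counted UMIs, Ighg2c, the γ2c chain of C57BL/6 mice, was rare apart from 1 cell. It had 949, 43, 68 and 51 UMIs in libraries 5 to 8, and 924 of the 949 lay in 1 Jchain-high cell that also had 122 Jchain and 4798 Igkc UMIs. Without that cell library 5 had 25 Ighg2c UMIs. The ratio of highest to lowest library was 25.4 with the Jchain-high cells and 1.93 without them. The next highest cells of the 4 libraries had 2 to 4 Ighg2c UMIs.

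Ighg3, the γ3 chain, was found in 2.50%, 2.40%, 0.640% and 0.724% of cells. Its level was 3.52 (3.00 to 4.12), 3.56 (3.07 to 4.12), 0.739 (0.543 to 0.982) and 0.744 (0.516 to 1.04) CPM, so libraries 5 and 6 lay above libraries 7 and 8 by more than counting error. The cell with the most held 22 Ighg3 UMIs in library 6, beside 5 Ighm and 14 Ighg2b UMIs. Ighg1, the γ1 chain, had 1, 12, 10 and 3 UMIs, of which 11 lay in 1 cell of library 6 with 0 Ighm UMIs and 8 Ighg2b UMIs.

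Igha, the α chain of IgA, was found in 2.60%, 2.72%, 0.231% and 0.475% of cells, at 2.48 (2.04 to 2.98), 2.79 (2.35 to 3.28), 0.204 (0.109 to 0.349) and 0.416 (0.250 to 0.650) CPM. Its ratio of 13.7 was the largest among the members apart from Ighg2c. Nearly all cells with Igha had 1 UMI, and the single cell with more than 2 was the cell of library 6 with 15 Igha UMIs, which had 114 UMIs of the λ genes Iglc1 to Iglc3 and 9 of Igkc. Ighe, the ε chain of IgE, had 3, 5, 1 and 0 UMIs, and 0 of 4003 cells in library 8 allows a share of up to 0.0749%.

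Genes of class switching did not vary in 1 direction. Ung, a uracil glycosylase that takes part in switching, was lower in libraries 5 and 6, at 10.9, 10.4, 45.9 and 44.6 CPM. Tbx21, the factor T-bet that favors switching to IgG2c, was lower there as well at 1.03, 0.910, 8.31 and 7.27, and so was Batf, which is required for switching, at 154, 143, 454 and 420. Tgfbr2, a receptor chain for TGF-β, which takes part in directing switching, was higher in libraries 5 and 6, at 68.0, 71.9, 17.3 and 18.3. Of the 17 genes of this list considered, 5 had a ratio of at least 2, beside 35.6% of all genes and so not above it, with a median of 1.69 against 1.67 over all genes.

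Among the plasma cell genes, 6 of the 8 with at least 100 UMIs had a ratio of at least 2, beside 35.6% of all genes, with a median of 5.84 against 1.67. Mzb1, a chaperone of antibody assembly, stood at 1441, 1548, 154 and 157 CPM, and Prdm1, the factor Blimp-1 that drives plasma cell formation, at 11.6, 13.5, 1.40 and 1.25. Irf4 and Sdc1, the latter encoding the surface marker CD138, ran the other way, at 4.91, 6.35, 43.8 and 40.7 and at 0.201, 0.213, 7.45 and 6.15 CPM. Xbp1 had a ratio of 1.32.

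Cycling cells had no common direction for Ighm across the libraries. In cells with at least 3 UMIs of Mki67, a marker of proliferation, Ighm stood at 3461, 4755, 2405 and 1500 CPM against 3646, 3929, 1900 and 1490 in cells with none. The median Ighm per 10000 UMIs of the cell was 28.4, 29.7, 12.5 and 12.7 against 30.4, 31.9, 8.24 and 7.92, so by the middle cell Ighm was lower in the former in libraries 5 and 6 and higher in libraries 7 and 8. Ighg2b was lower in the former in all 4 libraries, at 414, 394, 248 and 213 against 425, 410, 289 and 287 CPM, with intervals that overlapped in libraries 5 and 6. Cells with at least 10 light chain UMIs were also split by κ and λ. Those with more λ were 14.99%, 16.7%, 7.69% and 7.82% of all cells, and those with more κ were 84.2%, 82.8%, 53.2% and 52.4%. Many cells of libraries 7 and 8 were thus in neither class, so the λ shares cannot be compared between libraries. Cells with more λ had 448, 418, 318 and 294 CPM of Ighg2b against 417, 403, 283 and 283 in cells with more κ. The intervals overlapped in libraries 6 and 8. In library 8, however, 672 of the 7622 Ighg2b UMIs of the cells with more κ came from 1 cell. The interval without that cell was not computed, so the overlap in library 8 is uncertain.

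Among 3523 genes found in at least 20% of the cells of every library, the 5 with the highest mean Pearson correlation with Ighm over cells were Mzb1 (0.433), Cd79a (0.389), Igkc (0.341), Iglc2 (0.299) and Malat1 (0.294), the last a nuclear noncoding RNA. The correlations were taken on log(1 + UMIs per 10000) over the 4196, 4714, 5621 and 4003 cells, which share the depth and the division by the total of their own cell. For Mzb1 they were 0.452, 0.475, 0.427 and 0.379, and for Igkc 0.175, 0.231, 0.510 and 0.449. For Ighd no gene came above 0.113, the value of Fcmr, which encodes the Fc receptor for IgM, and a correlation of this size in such sparse counts is no finding. Ighm correlated with Ighd at -0.113, -0.126, 0.0535 and 0.0374 and with Ighg2b at -0.0858, -0.0815, 0.0541 and 0.0354, so neither pair had a common sign. For Ighg2b, looked at after the other values had been seen, the highest was Wfdc21 at 0.221, 0.220, 0.230 and 0.233.

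IgG-dominant cells were set beside cells with at least 90% Ighm and Ighd in libraries 7 and 8, the only ones with at least 50 cells of both kinds (373 and 241 against 1184 and 892). Of 2540 genes that reached 50 CPM in the higher kind, 0.0787% were at least 2-fold higher in the IgG-dominant cells and 1.18% at least 2-fold lower, in both libraries and pooled. A gene could reach 50 CPM in 1 kind alone, so these shares lean toward genes that differed. The 2 higher genes were Ighg2b, which defined the cells, and Lrrc25 at 66.2 against 31.4 CPM, followed by Atf3 (1.75-fold), Lmo2 (1.73-fold) and Il21r, the receptor chain for IL-21 (1.68-fold). Lrrc25 and Atf3 reached 50 CPM only in the IgG-dominant cells. The 30 lower genes were led by Jchain at 3.70 against 241 CPM, Apoe at 5.84 against 84.1, Iglc1 at 93.5 against 1106, Iglc3 at 17.7 against 175 and Ighm, which also defined the cells. Jchain-high cells were 0.268% and 0.415% of the IgG-dominant cells and 4.14% and 2.69% of the others, and without them, an alternative added after the data were seen, 2 genes were at least 2-fold higher and 28 lower. Jchain then stood at 0.571 against 4.90 CPM, Iglc1 at 91.9 against 558, Igkc at 926 against 4535 and Ighm at 540 against 2423, while Lrrc25 was 2.06-fold higher. Genes of the cell cycle were also lower in the IgG-dominant cells, both with the Jchain-high cells and without them. Mki67 stood at 10.3 against 60.7 CPM with them and at 10.3 against 62.7 without them. Top2a, a topoisomerase of dividing cells, stood at 53.8 against 128 with them and at 53.9 against 133 without them. In libraries 7 and 8, cells with Mki67 had more Ighm by the middle cell and less Ighg2b, as given above. Jchain and Igkc likewise correlated with Ighm in libraries 7 and 8, at 0.471 and 0.366 for Jchain and 0.510 and 0.449 for Igkc. Those correlations include the Jchain-high cells, and cells of like Ighm were not compared. The differences in Mki67, Jchain and Igkc can therefore not be read as separate from the genes that defined the cells. Ighd, which also entered the definition of the cells, stood at 36.6 against 42.9 CPM with the Jchain-high cells and 36.7 against 43.9 without them.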

How the data were processed

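The authors prepared 10x Genomics Chromium 3′ libraries, aligned reads to the mouse genome, counted UMIs per gene and cell with Cell Ranger (version 3.1.0, per the labels) and combined the libraries with its aggr step, which evens out their sequencing depth. The deposited values are whole UMI counts. A list of 19920 barcodes without sample names accompanied a matrix of 35989 columns. Barcodes were matched in order to the final 19920 columns, and 16069 earlier columns were left out. Mean expression shifted most at the start of library 7 (percentile 100 of all columns) and of library 8 (percentile 96.4), and less at that of library 6 (percentile 88.3). Within 400 columns, the largest shift fell on the start used for libraries 7 and 8. For library 6 it fell after column 20425, whereas the start used was after column 20673. The line between libraries 5 and 6 is therefore the least certain.

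Sums, shares, intervals and thinning without replacement were computed with Python (version 3.11.15), NumPy (version 2.4.6), SciPy (version 1.17.1) and pandas (version 2.3.3), and the functions were tested on simulated data. No doublet caller was run and no clusters were formed. A ratio between libraries used a floor of 3 UMIs. No p-value is given, since no library could be tied to a sample. Gene positions and sequences are from GENCODE vM21 on GRCm38. The members and lists were chosen with earlier results of these data known. A comparison set of cells and results on a gene of the class switching list are not reported here. Named genes were all 8 members, all genes of the lists that a result turned on, the 5 genes most like Ighm and Ighd, and up to 5 genes highest and lowest in IgG-dominant cells. Alternatives changed the limits on genes and mitochondrial UMIs, left out Jchain-high cells, the deepest cells or 1 library, thinned cells, and changed the limits for IgG and for a leading gene. Leaving out cells with at least 50 IgG UMIs, and Jchain-high cells from the IgG-dominant comparison, was added after the data were seen.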

Additional observations from a re-analysis of the deposited data

Results flagged for a closer look

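The 1386 barcodes that failed the limits on detected genes or mitochondrial UMIs also held heavy chain transcripts. Summed over them, Ighm stood at 4116 CPM, Ighg2b at 378 and Ighd at 157, against 2759, 345 and 89.9 in the passing cells. By library, Ighm in the barcodes left out stood at 3967, 4318, 2818 and 5323 CPM in libraries 5 to 8. Their median depth was 3931 UMIs, and Jchain-high barcodes made up 1.37% of them and 0.701% of the passing cells. The part of either in the higher levels was not tested.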

How the results depend on the processing

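Over all libraries, Ighm made up 86.1% of heavy chain constant UMIs. The share was 87.6% with under 5% mitochondrial UMIs, 83.6% without Jchain-high cells, 85.8% without the 5% deepest cells, 85.9% after thinning, 86.4% without cells of at least 50 IgG UMIs (an alternative chosen after seeing the data), 83.9% as the median within cells, and 85.1% to 86.7% with 1 library left out. For Ighg2b the share was 10.8%, and in the same order 10.3%, 12.8%, 11.1%, 10.9%, 10.7%, 11.8% and 10.1% to 11.97%. Cells with IgG transcripts were 78.3%, and 70.6% with under 5% mitochondrial UMIs, 77.3% without the deepest cells, 66.9% after thinning, 64.4%, 52.5%, 33.1% and 8.69% with at least 2, 3, 5 and 10 IgG UMIs, and 76.2% to 80.6% with 1 library left out. Ighm stood at 2759 CPM, and at 2429 with under 5% and 2787 with under 20% mitochondrial UMIs, 2233 without Jchain-high cells, 2688 without the deepest cells, 2744 after thinning, 4633 without mitochondrial, ribosomal protein and immunoglobulin genes in the total, and 2308 to 3137 with 1 library left out. Ighd stood at 89.9 CPM, and at 40.3 with under 5% and 91.7 with under 20% mitochondrial UMIs, 87.2 without the deepest cells, 151 with the smaller total, and 69.5 to 112 with 1 library left out. IgG-dominant cells were 4.36%, and 0.229% with a limit of 80%, 5.80% with at least 5 heavy chain constant UMIs, and 2.43% without library 7 to 6.22% without library 6.

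Under 5% mitochondrial UMIs, 143, 207, 3545 and 2510 cells of libraries 5 to 8 remained, so the pooled values then came mostly from libraries 7 and 8. Libraries 5 and 6 kept their place above or below libraries 7 and 8 in each of the 8 alternatives per library for both Ighm measures, Ighd and the Ighg2b share, in the 11 for cells with IgG transcripts and in the 3 for IgG-dominant cells. No paired analysis was possible because no library is tied to a sample or its replicate number.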
